A study of Ovis aries with 10 samples.

Results

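Gamma-aminobutyric acid (GABA) is the main inhibitory transmitter of the adult hypothalamus. It is made from glutamate by glutamate decarboxylase, loaded into vesicles, released, taken up again by neurons and astrocytes, and broken down in mitochondria. GABA-A receptors are chloride channels built from several subunits and are enhanced by neurosteroids made from progesterone, and whether their opening inhibits a neuron depends on the chloride gradient set by cation-chloride cotransporters. GABA-B receptors act through G proteins. The results below concern 25 genes of this system, chosen by symbol as genes of GABA synthesis, transport, reception and receptor trafficking. All 25 were found among the 33775 genes of the count table. Of these, 23 carried their symbol there, and GABRG3 (gene identifier 101108521) and GABARAP (gene identifier 101118285) were matched by identifier through the RefSeq gene table. All 25 had enough reads to be tested.

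Reads were counted in the mediobasal hypothalamus of adult Ile-de-France ewes, a sheep breed. Of the 20 ewes, 10 were in the follicular phase, the part of the ovarian cycle before ovulation when progesterone is low, and 10 in the luteal phase, when the corpus luteum secretes it. RNA was mixed in equal amounts from 2 ewes drawn at random within a phase, which gave 5 libraries per phase. The labels give no treatment or genotype, and neither steroid levels nor the day of the cycle were used here. A single library is thus the mean of a pair of ewes, and in such tissue fewer cells of a type and less RNA per cell cannot be told apart. The title asks for the impact of progesterone, and the comparison available is luteal against follicular phase.

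Libraries held 20644992 to 43193449 reads. Follicular 1 and 3 were the shallowest and held the highest share of cytosolic ribosomal protein reads (2.58% in each over 20 such genes, against 1.36% to 2.3% in the other libraries). All 8 general neuron markers were found, with a summed level of 1466 to 1596 CPM (CPM is a gene's reads as a share of the library's total, scaled for library composition and multiplied to a common size) in follicular and 1205 to 1668 CPM in luteal libraries, and luteal 4 was the lowest. Of these 8 neuron markers, 4 averaged higher and 4 lower in luteal libraries. Of 6 arcuate nucleus markers, 1 averaged higher and 5 lower in luteal libraries. They summed to 1013.6 to 2068.7 CPM in follicular and 918.1 to 1550.1 CPM in luteal libraries. Among them, POMC and TAC3 were present at 405 to 1371 CPM and 201 to 315 CPM. All 6 oligodendrocyte markers averaged lower in luteal libraries (508.8 to 1280.5 CPM summed, against 826.7 to 1399.7 CPM in follicular libraries). Of 6 markers of the forebrain GABA neuron lineage, 5 averaged higher and 1 lower. Their sum was lowest in follicular 4 (24.6 CPM) and highest in luteal 2 (40.8 CPM). The 5 markers of the paraventricular and supraoptic nuclei summed to 277.8 to 2368 CPM in follicular and 67.3 to 676.9 CPM in luteal libraries, most of it AVP, while SIM1 was at most 0.13 CPM. The 7 pituitary markers had a summed level of 3190 to 4792 CPM in follicular and 2453 to 4691 CPM in luteal libraries. Most of it was CGA and PRL, while POU1F1 was at most 1.35 CPM and had 0 CPM in follicular 3. The part of these markers in the results below was not tested.

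No GABA gene differed between phases past the threshold. By the quasi-likelihood test of edgeR with Benjamini-Hochberg adjustment over the 18276 genes tested, 0 of 25 had an adjusted p under 0.05, and 0 (0%) of all genes did. The smallest adjusted p among the GABA genes was 0.426. Among genes for which DESeq2 gave an adjusted p, it called 0 of 24 GABA genes and 35 (0.227%) of all genes. It gave none for GABRG3. At an unadjusted p under 0.05, 3 of the 25 (12%) stood out, against 11.4% of all genes tested. GABRE and SLC6A11 averaged higher in luteal libraries, 2 of 25 (8%) against 4.27% of all genes, and GABRB1 averaged lower, 1 of 25 (4%) against 7.12%. In all, 17 of the 25 averaged higher and 8 lower in luteal libraries, with a median log2 fold change of 0.10 against 0.01 over all genes, of which 51.5% averaged higher. Without follicular 1 and 3, 13 of the 25 averaged higher, with a median of 0.0095. The shares of GABA genes at an unadjusted p under 0.05 were thus near those of all genes.

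GABRE encodes the epsilon subunit of the GABA-A receptor, found in hypothalamus and brainstem and known to reduce sensitivity to some allosteric enhancers. It stood at 70.8, 80.8, 64.1, 74.7 and 93.5 CPM in follicular libraries 1 to 5 and at 87.0, 109, 98.7, 98.8 and 107 CPM in luteal libraries 1 to 5. The phases overlapped through follicular 5, which lay above luteal 1. The mean was 76.8 ± 11.2 CPM in the follicular and 100.2 ± 8.77 CPM in the luteal libraries (SD, n = 5 each), a log2 fold change of luteal over follicular, below called the log2 difference, of 0.38 (SE 0.11). Its unadjusted edgeR p of 0.00539 ranked 152 of the 18276 genes, and its adjusted p was 0.426. The difference had the same direction under all 19 alternative settings, with log2 fold changes from 0.28 without follicular 1 and 3 to 0.47 without follicular 5, and adjusted p from 0.0606 to 0.994.

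SLC6A11 encodes GAT3, a plasma membrane GABA transporter found mainly in astrocytes. Its levels were 115, 143, 98.4, 130.2 and 127 CPM in follicular libraries 1 to 5 and 171, 168, 159, 137 and 138 CPM in luteal libraries 1 to 5. All luteal libraries but 4 and 5 lay above every follicular library, and follicular 2 lay above both of these. The mean was 122.8 ± 16.8 CPM in the follicular and 154.6 ± 16.2 CPM in the luteal libraries (SD, n = 5 each; log2 difference 0.33, SE 0.12; edgeR adjusted p = 0.426). Without follicular 1 and 3 the log2 fold change was 0.22. The 8 astrocyte markers summed to 4229 to 5380 CPM in follicular and 3338 to 5213 CPM in luteal libraries, with 4 averaging higher and 4 lower in the latter, and their part in this difference was not tested. ABAT, the GABA transaminase that breaks GABA down, averaged 116.2 ± 27.9 and 126.7 ± 21.8 CPM (log2 difference 0.12, SE 0.17). Its direction turned without follicular 1 and 3, to -0.04.

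GABRB1 encodes the beta-1 subunit. It was the 1 GABA gene (4%) whose phases did not overlap, against 1.12% of all genes tested. Its levels were 8.04, 6.68, 8.49, 7.12 and 6.43 CPM in follicular libraries 1 to 5 and 6.15, 6.29, 5.51, 4.28 and 5.20 CPM in luteal libraries 1 to 5. The gap between the lowest follicular library, 5, and the highest luteal library, 2, was small beside the spread within each phase. The mean was 7.35 ± 0.89 CPM in the follicular and 5.49 ± 0.81 CPM in the luteal libraries (SD, n = 5 each; log2 difference -0.42, SE 0.16; edgeR adjusted p = 0.426). These levels rest on 157 to 295 reads per library. The phases stayed apart under the 3 other scalings tried, and the log2 fold change was -0.29 without follicular 1 and 3. Leaving out a single library cannot join phases that are already apart, except through rescaling, and did not do so.

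**Figure D1:**
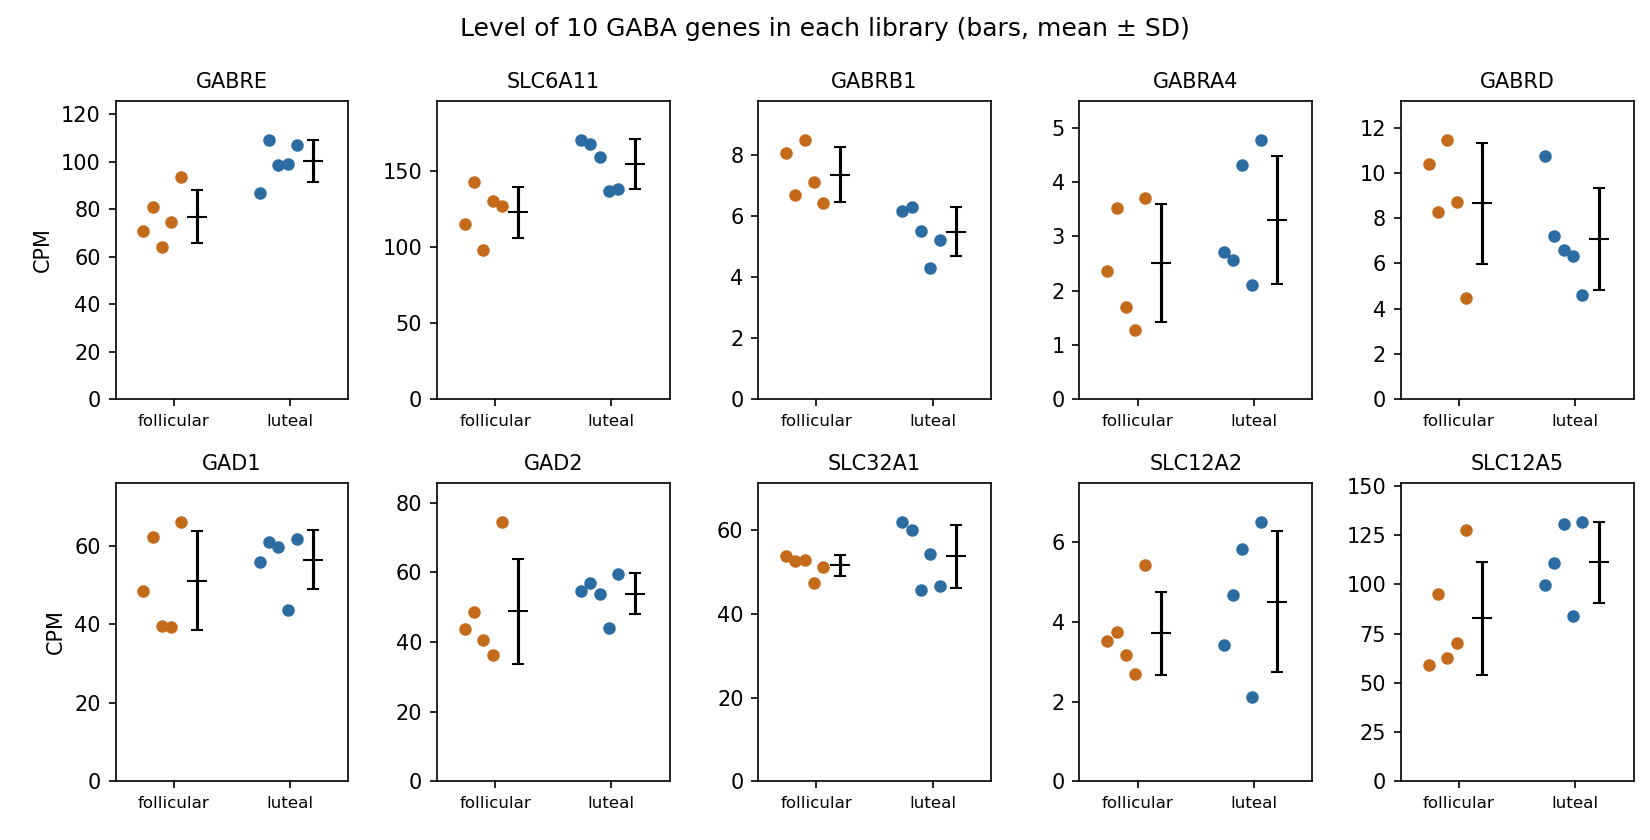
Level of 10 GABA genes in CPM (vertical axes, from 0) in each of the 5 follicular (orange) and 5 luteal (blue) libraries, each point being a mix of 2 ewes and the bars the mean ± SD. GABRB1 is the gene whose phases do not overlap; GABRE overlaps through follicular 5 at 93.5 CPM and SLC6A11 through follicular 2 at 143 CPM.

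The genes that define a GABA neuron differed by less than the spread between libraries. GAD1 and GAD2 encode the isoforms of glutamate decarboxylase, GAD67 and GAD65. GAD1 stood at 48.5, 62.2, 39.5, 39.3 and 66.1 CPM in follicular libraries 1 to 5 and at 55.7, 61.0, 59.7, 43.6 and 61.8 CPM in luteal libraries 1 to 5. GAD2 stood at 43.7, 48.7, 40.6, 36.2 and 74.5 CPM in follicular libraries and at 54.5, 57.0, 53.8, 44.1 and 59.5 CPM in luteal libraries. Follicular 5 was the highest of all 10 libraries in both genes, and luteal 4 was the lowest luteal library in both. The phase means were 51.1 ± 12.6 and 56.4 ± 7.48 CPM for GAD1 (log2 difference 0.14, SE 0.17) and 48.7 ± 15.1 and 53.8 ± 5.88 CPM for GAD2 (0.14, SE 0.18; SD, n = 5 each). The edgeR adjusted p was 0.653 and 0.676. Without follicular 5 the log2 fold change was 0.25 for GAD1 and 0.35 for GAD2, and without follicular 1 and 3 it was 0.02 for both.

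SLC32A1 encodes VGAT, which loads GABA and glycine into vesicles. It stood at 53.9, 52.6, 52.9, 47.5 and 51.3 CPM in follicular libraries 1 to 5 and at 62.1, 60.0, 45.7, 54.4 and 46.8 CPM in luteal libraries 1 to 5. Follicular libraries lay close together, with a coefficient of variation of 4.80% that was the lowest among the 25 genes in that phase, and luteal libraries spread to both sides of them. The phase means were 51.7 ± 2.48 and 53.8 ± 7.46 CPM (SD, n = 5 each; log2 difference 0.06, SE 0.11; edgeR adjusted p = 0.776). SLC32A1 thus did not share the high level of follicular 5 seen in GAD1 and GAD2. The ratio of GAD1 to GAD2 reads ran from 0.887 in follicular 5 to 1.28 in follicular 2, and from 0.99 to 1.11 over the luteal libraries. Its mean log2 differed by -0.02 between phases (exact two-sided permutation p = 0.873, 0.873 adjusted over 3 ratios).

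Of the 11 GABA-A subunit genes, 7 averaged higher and 4 lower in luteal libraries, and 0 passed the test. Subunits linked to extrasynaptic receptors, which respond strongly to neurosteroids, differed in sign without passing. GABRD, the delta subunit, stood at 10.4, 8.29, 11.5, 8.69 and 4.47 CPM in follicular libraries 1 to 5 and at 10.7, 7.22, 6.57, 6.31 and 4.59 CPM in luteal libraries 1 to 5. The lowest level of each phase was in library 5, and luteal 1 lay between follicular 1 and follicular 3. The phase means were 8.66 ± 2.67 and 7.09 ± 2.26 CPM (SD, n = 5 each; log2 difference -0.28, SE 0.27; edgeR adjusted p = 0.582). Without follicular 1 and 3 the log2 fold change was -0.0049, and without luteal 1 it was -0.48. GABRA4, the alpha-4 subunit that often partners delta, stood at 2.36, 3.52, 1.70, 1.27 and 3.70 CPM in follicular libraries and at 2.71, 2.56, 4.32, 2.1 and 4.78 CPM in luteal libraries. Luteal 3 and 5 were above every follicular library, and the other luteal libraries were within the follicular range. The means were 2.51 ± 1.08 and 3.29 ± 1.18 CPM (SD, n = 5 each; log2 difference 0.38, SE 0.33; edgeR adjusted p = 0.553), from 32 to 203 reads per library. Over the alternatives the log2 fold change of GABRA4 ran from 0.20 to 0.57.

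Among the other alpha subunits, GABRA3 averaged 53.0 ± 8.98 CPM in the follicular and 62.6 ± 6.76 CPM in the luteal libraries (log2 difference 0.24, SE 0.13). GABRA2 averaged 5.06 ± 1.37 and 5.33 ± 1.91 CPM (0.07, SE 0.28), and GABRA5 17 ± 1.91 and 15 ± 4.52 CPM (-0.18, SE 0.19; SD, n = 5 each). GABRA5 reached 21.9 CPM in luteal 1 and 10.2 CPM in luteal 4, so that the luteal libraries enclosed the follicular range of 15.2 to 20.3 CPM. GABRB2, the beta-2 subunit, averaged 4.87 ± 1.96 and 5.15 ± 1.87 CPM (0.07, SE 0.32). It ran from 2.40 CPM in luteal 4 to 7.80 CPM in follicular 5, a wider spread within phases than between them. The direction of GABRA2 turned in 4 and that of GABRB2 in 5 of 19 alternatives.

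The remaining subunits were the gamma subunits and theta. GABRG1, the gamma-1 subunit, averaged 52.0 ± 3.92 and 51.1 ± 7.45 CPM (log2 difference -0.03, SE 0.11), and its direction turned without follicular 4 and without luteal 4. GABRG3, the gamma-3 subunit, was near the limit of the data with 5 to 23 reads per library (0.34 ± 0.12 and 0.43 ± 0.09 CPM; 0.37, SE 0.29). GABRQ, the theta subunit, which is found in hypothalamus, averaged 56.9 ± 6.53 and 60.9 ± 10.1 CPM (0.10, SE 0.13; SD, n = 5 each). The edgeR adjusted p of the GABA-A subunits ran from 0.426 to 0.920.

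Subunit genes lie in clusters, and neighbours did not share a direction throughout. In the RefSeq gene table (assembly ARS-UI_Ramb_v3.0, used for names and order) GABRG1 and GABRA2 are neighbours, as are GABRA4 and GABRB1, with 1 protein-coding gene between GABRA2 and GABRA4. Over this cluster the log2 fold changes were -0.03, 0.07, 0.38 and -0.42 in order. On the X chromosome GABRQ neighbours GABRA3, and GABRE follows after 1 protein-coding gene. The log2 fold changes there were 0.10, 0.24 and 0.38. GABRA5 and GABRG3 are neighbours too, at -0.18 and 0.37. No test of these patterns was made.

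**Figure D2:**
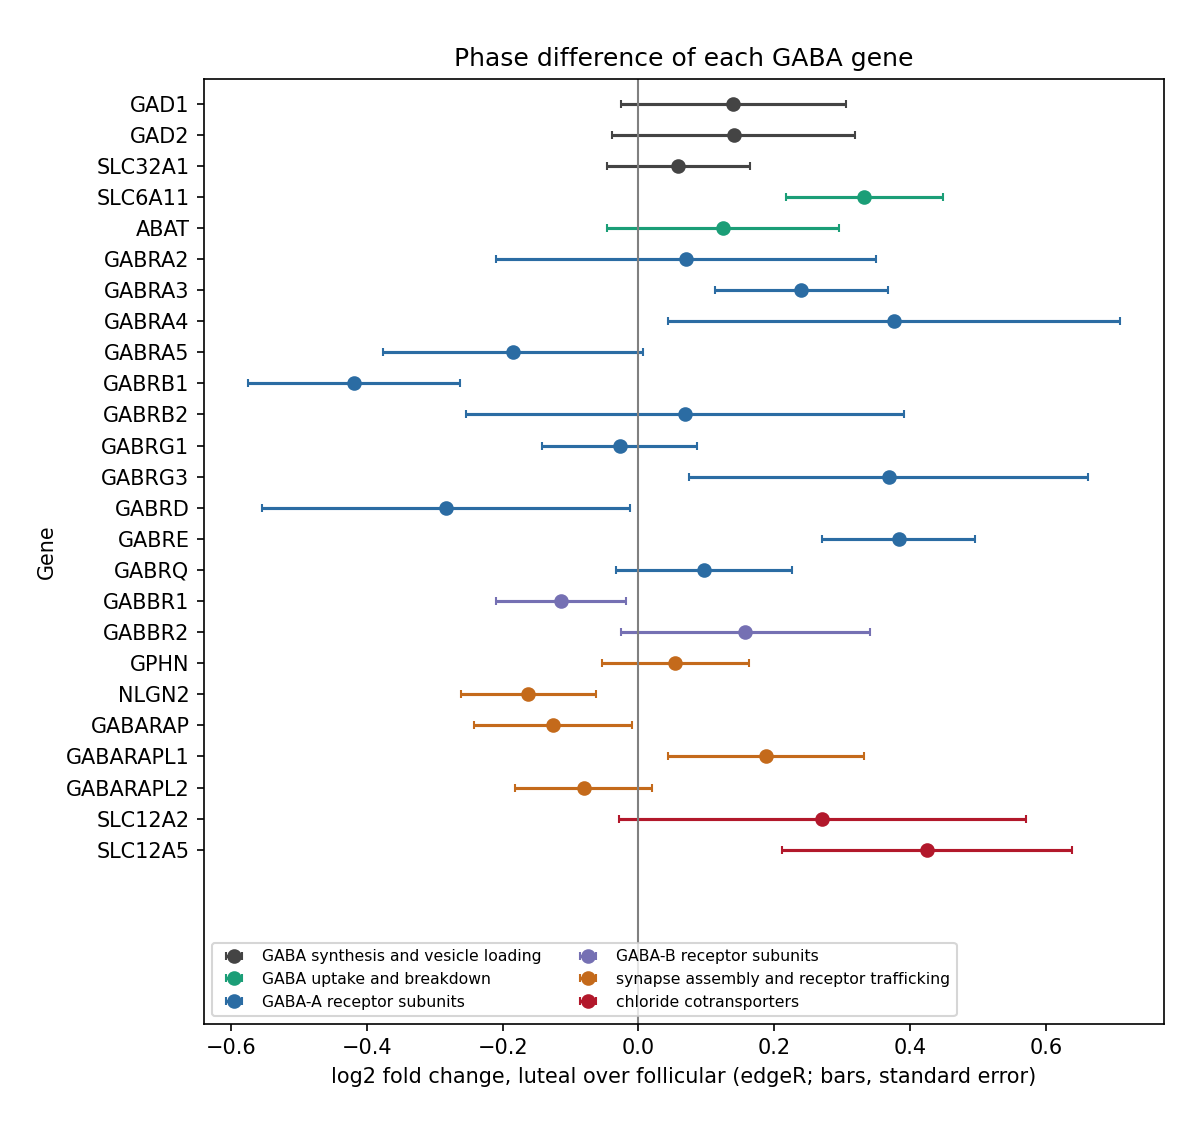
Log2 fold change of luteal over follicular libraries by edgeR (horizontal axis) for each of the 25 GABA genes, coloured by role, with bars of 1 standard error and 5 libraries per phase. Values run from -0.42 for GABRB1 to 0.43 for SLC12A5, and 16 of the 25 lie within 0.2 of 0.

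The GABA-B receptor is an obligate dimer of the products of GABBR1, which binds GABA, and GABBR2, which couples to the G protein. GABBR1 averaged 469.9 ± 40.2 CPM in the follicular and 434.3 ± 33.9 CPM in the luteal libraries (log2 difference -0.11, SE 0.10). GABBR2 averaged 22.0 ± 5.96 and 24.6 ± 3.84 CPM (0.16, SE 0.18; SD, n = 5 each), and its direction turned to -0.01 without follicular 1 and 3. GABBR2 was highest in follicular 5 at 31.5 CPM and lowest in follicular 3 at 16.7 CPM. The ratio of GABBR1 to GABBR2 reads was 25.2, 19.5, 32, 23.3 and 13.5 in follicular libraries 1 to 5 and 18.3, 17.9, 14.4, 23.9 and 15.8 in luteal libraries 1 to 5. It spanned more than the luteal range within the follicular phase. Its mean log2 differed by -0.30 between phases (exact two-sided permutation p = 0.254, 0.417 adjusted over 3 ratios). This difference was -0.16 without follicular 3, -0.47 without follicular 5 and -0.04 without follicular 1 and 3.

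Of the 5 genes of synapse assembly and receptor trafficking, 2 averaged higher and 3 lower, and none passed edgeR (adjusted p from 0.448 to 0.798; unadjusted p under 0.05 for 0). GPHN, or gephyrin, the scaffold under inhibitory receptors, averaged 22.7 ± 2.07 and 23.6 ± 2.17 CPM (log2 difference 0.05, SE 0.11). NLGN2, the adhesion protein of inhibitory synapses, averaged 275.6 ± 24.6 CPM in the follicular and 246.4 ± 23.8 CPM in the luteal libraries (-0.16, SE 0.10). GABARAP binds GABA-A receptors in transit and belongs, with GABARAPL1 and GABARAPL2, to the ATG8 proteins of autophagy, so these genes are not specific to GABA neurons. GABARAP averaged 491.2 ± 47.6 and 450.1 ± 63.1 CPM (-0.13, SE 0.12), GABARAPL1 124.7 ± 25.4 and 142.1 ± 16.8 CPM (0.19, SE 0.14), and GABARAPL2 196.4 ± 16.5 and 185.7 ± 20.9 CPM (-0.08, SE 0.10; SD, n = 5 each). NLGN2 and all 3 ATG8 genes had their highest luteal level in luteal 4 (283 CPM for NLGN2, 556 for GABARAP, 163 for GABARAPL1 and 212 for GABARAPL2), where 16 of the 25 GABA genes had their lowest luteal level.

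The chloride cotransporters both averaged higher in luteal libraries without passing. SLC12A5 encodes KCC2, which extrudes chloride from mature neurons. It stood at 58.8, 95.1, 62.5, 70.2 and 127 CPM in follicular libraries 1 to 5 and at 99.7, 111, 131, 83.7 and 132 CPM in luteal libraries 1 to 5. Follicular 1, 3 and 4 lay below every luteal library, and follicular 5 lay above all luteal libraries but 3 and 5. The means were 82.8 ± 28.7 and 111.3 ± 20.6 CPM (SD, n = 5 each; log2 difference 0.43, SE 0.21; edgeR adjusted p = 0.428), the largest fold change of the 25 in the luteal direction. It was 0.64 without follicular 5 (edgeR adjusted p = 0.0606) and 0.20 without follicular 1 and 3 (edgeR adjusted p = 0.994). Without follicular 5, 34.2% of all genes had an unadjusted edgeR p under 0.05, and GABRE had the same adjusted p as SLC12A5.

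SLC12A2 encodes NKCC1, which brings chloride into cells and is also found in glia and choroid plexus. It stood at 3.53, 3.74, 3.18, 2.70 and 5.45 CPM in follicular libraries and at 3.42, 4.68, 5.83, 2.13 and 6.52 CPM in luteal libraries. The luteal libraries held both the lowest and the highest level of all 10. The means were 3.72 ± 1.04 and 4.52 ± 1.78 CPM (SD, n = 5 each; log2 difference 0.27, SE 0.30; edgeR adjusted p = 0.630). The ratio of SLC12A5 to SLC12A2 reads, in which the scaling of libraries cancels, was 16.6, 25.4, 19.6, 26.0 and 23.4 in follicular libraries 1 to 5. In luteal libraries 1 to 5 it was 29.2, 23.6, 22.4, 39.3 and 20.2. Luteal 4 was the highest and follicular 1 the lowest, and the other libraries were intermixed. The mean log2 ratio was 4.45 ± 0.27 in follicular and 4.71 ± 0.38 in luteal libraries (SD, n = 5 each). The difference of 0.26 did not pass (exact two-sided permutation p = 0.278, 0.417 adjusted over 3 ratios). It was 0.11 without luteal 4, 0.16 without follicular 1 and 0.07 without follicular 1 and 3.

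Many GABA genes had their extremes in the same libraries, which for the lowest levels were not those of genes in general. Of the 25 genes, 14 (56%) had their highest follicular level in follicular 5, against 35.8% of all genes tested. The lowest was in follicular 3 for 9 (36%, against 24.4%) and in follicular 4 for 8 (32%, against 11.3%). In the luteal phase 8 were highest in luteal 5 (32%, against 28.8%) and 7 in luteal 1 (28%, against 25.6%), and 16 were lowest in luteal 4 (64%, against 24.2%). All genes tested were most often lowest in follicular 5 (34.6%, against 24% of the GABA genes) and in luteal 5 (27.2%, against 20%). These shares are a description of these libraries and were not tested. The median of the 25 genes, each taken as log2 CPM around its own mean over the 10 libraries, was -0.12, 0.06, -0.18, -0.21 and 0.15 in follicular libraries 1 to 5 and 0.10, 0.08, 0.13, -0.19 and 0.13 in luteal libraries 1 to 5. Follicular 2 and 5 were thus with most luteal libraries, and luteal 4 was with follicular 1, 3 and 4. The coefficient of variation within a phase was widest for GABRA4 (43%) and GABRB2 (40.1%) in follicular libraries and for SLC12A2 (39.5%) in luteal libraries. Its median over the 25 genes was 16.9% in follicular and 14.6% in luteal libraries, against 21.5% and 18.9% over all genes tested.

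**Figure D3:**
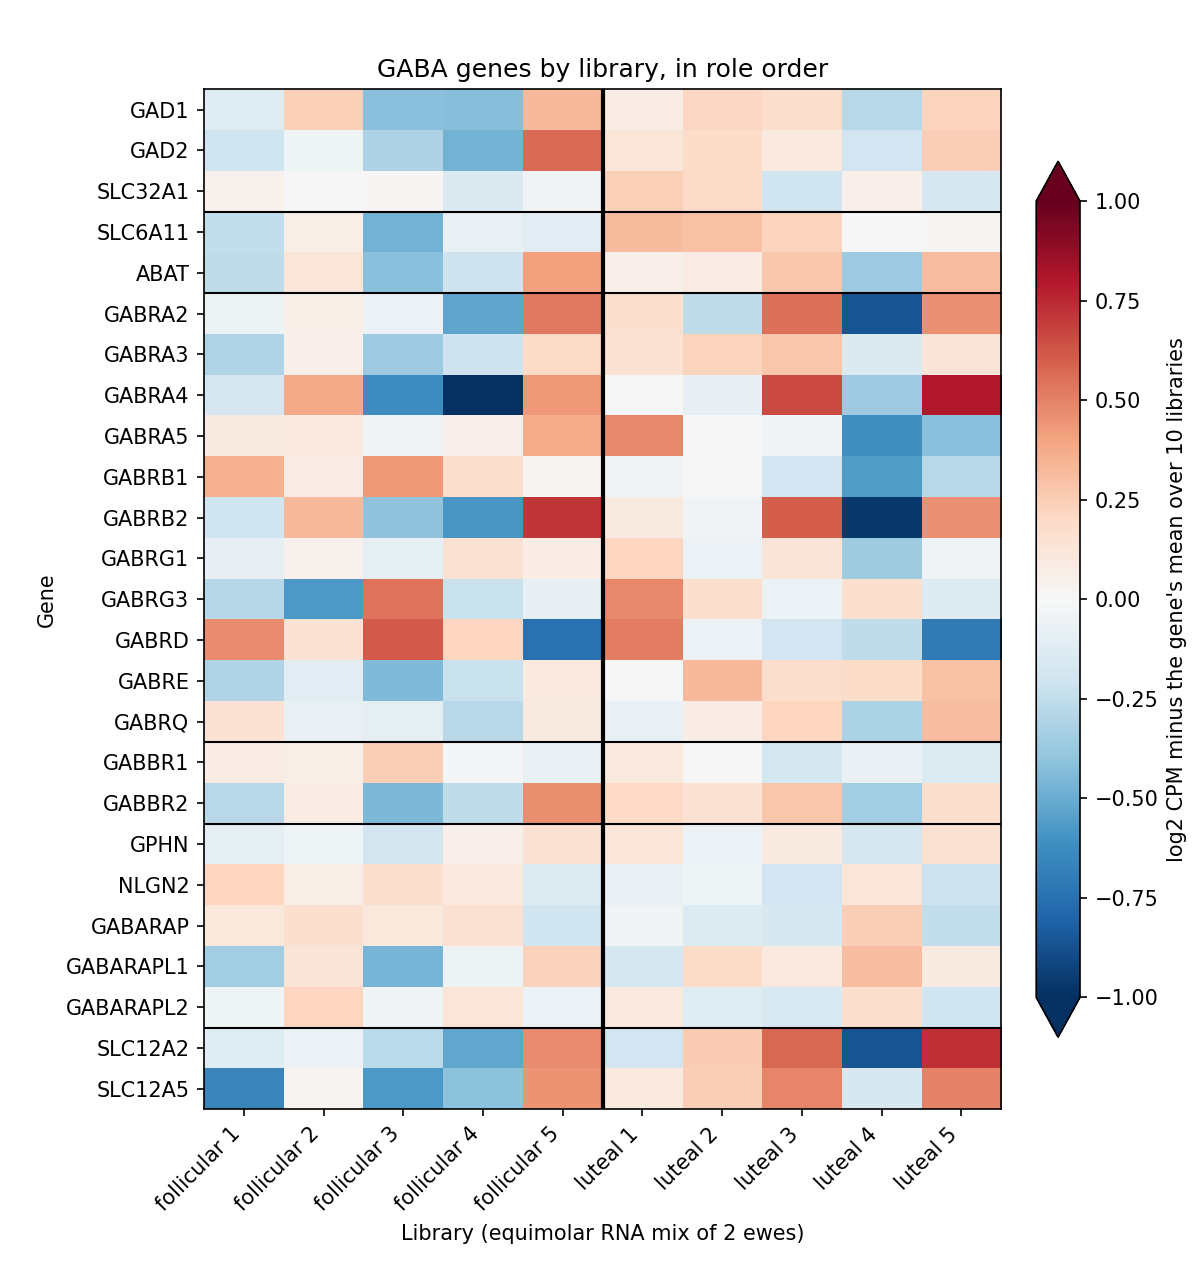
Log2 CPM of the 25 GABA genes (rows, in the order of their roles) in each library (columns, follicular left and luteal right of the thick line), as the difference from the gene's mean over 10 libraries; red is higher and blue lower. Follicular 5, luteal 3 and luteal 5 are red in many rows and follicular 3, follicular 4 and luteal 4 are blue, with GABRD, NLGN2 and GABARAP among the rows that go the other way between follicular 3 and 5.

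Levels of many genes, of the GABA system and in general, followed the share of ribosomal protein reads in the libraries, a relation chosen after the values had been seen. Over the 10 libraries and adjusted over all genes tested, 15 of the 25 genes (60.0%) were related to it by Pearson's r, against 49.1% of all genes (100000 permutations, Benjamini-Hochberg). The relation was thus called for many genes outside the GABA system too. A lower level where the share was higher was called for 11 (44.0%, against 25.1% of all genes), and a higher level for 4 (16%, against 24.0%). The share itself averaged lower in luteal libraries, with a range of 1.40% to 2.00% against 1.36% to 2.58% in follicular libraries. As both measures come from the same reads, they share the composition of the library.

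SLC12A5 followed the share most closely of the 25 genes (Pearson's r = -0.986, permutation adjusted p = 0.000264; Spearman's rho = -0.952, permutation adjusted p = 0.00195). Its unadjusted p of 1e-05 is the smallest that these permutations can give. GABRA3 (r = -0.931, permutation adjusted p = 0.00134; rho = -0.830, 0.0156) and ABAT (r = -0.910, 0.00235; rho = -0.927, 0.00207) came next. GABBR2 (r = -0.892), GAD1 (-0.859), GABRE (-0.846), GAD2 (-0.844) and GABRA4 (-0.807) were called in the same direction, with permutation adjusted p from 0.0035 to 0.0141. NLGN2 (r = 0.901, permutation adjusted p = 0.00312; rho = 0.915, 0.00346) and GABRD (r = 0.814, permutation adjusted p = 0.0157; rho = 0.794, 0.0235) went the other way. SLC32A1 (r = 0.192, permutation adjusted p = 0.671) and GABRA5 (r = -0.0072, 0.989) were not called, so the vesicular transporter was not called in the relation that GAD1 and GAD2 had.

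By Spearman's rho 12 of the 25 (48%) were called, 11 of the 15 above and GPHN, against 44.6% of all genes. The 4 not called by rho were GABRE, GABBR1, GABARAP and GABARAPL1 (permutation adjusted p 0.0577, 0.0559, 0.0507 and 0.125). Follicular 1 and 3 were farthest from the median share. Without them all 25 relations had the same sign, and 11 of the 15 had an unadjusted exact permutation p under 0.05 over the 8 libraries left. This p was computed for the 25 genes only, so there is no share of all genes to set it against. It is also a looser threshold than the adjusted p used over the 10 libraries. SLC12A5 had r = -0.973 there. The relations of the 15 with a larger exact p were those of GABRD (r = 0.701, exact permutation p = 0.0543), GABRE (-0.642, 0.0867), GABBR1 (0.499, 0.209) and GABARAPL1 (-0.355, 0.390). Over all 10 libraries their r was 0.81, -0.85, 0.73 and -0.78 in the same order. A relation also passes less easily over fewer libraries, and the part of follicular 1 and 3 in these relations was not tested. With each value taken around its phase mean, SLC12A5 had r = -0.987, and the weakest of the 15 had an r of 0.648 in size.

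**Figure D4:**
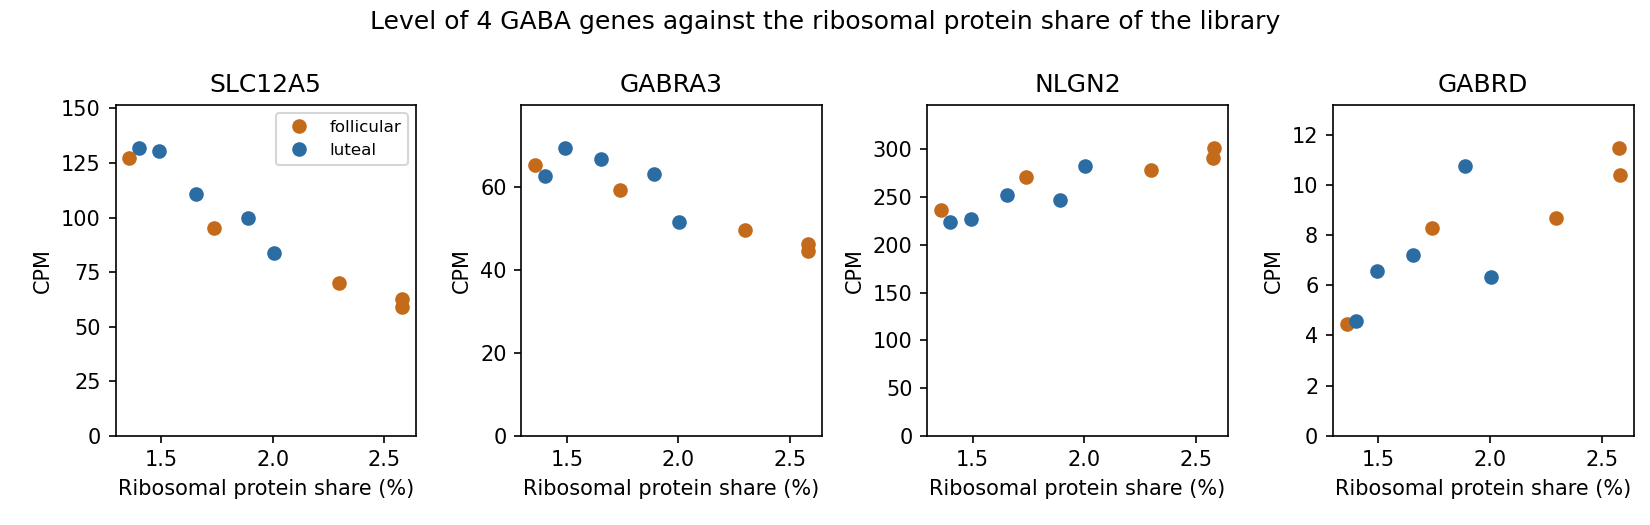
Level of SLC12A5, GABRA3, NLGN2 and GABRD in CPM (vertical axes, from 0) against the share of reads from 20 cytosolic ribosomal protein genes in percent (horizontal axes), with a point for each follicular (orange) and luteal (blue) library. SLC12A5 and GABRA3 are lower where the share is higher (r = -0.986 and -0.931), NLGN2 and GABRD are higher (r = 0.901 and 0.814), and both phases lie along the same trend.

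In the wider pathway, 31 of 35 further genes of GABA signalling had enough reads to be tested, and 0 passed edgeR over all genes. Of these, 20 averaged higher and 11 lower in luteal libraries, with a median log2 fold change of 0.13. At an unadjusted p under 0.05, 1 averaged higher and 2 lower (9.68% in all, against 11.4% of all genes). IQSEC3, an exchange factor bound to gephyrin, stood at 109, 86.9, 94.0, 97 and 84.6 CPM in follicular libraries 1 to 5 and at 80.7, 73.5, 80.2, 77.2 and 71.8 CPM in luteal libraries 1 to 5. Its phases did not overlap (log2 difference -0.30, SE 0.09, edgeR adjusted p = 0.426). This held for 1 of the 31 genes (3.23%), against 1.12% of all genes tested. LHFPL4, which holds GABA-A receptors at synapses with neuroligin 2, averaged 150.2 ± 16.6 and 123.5 ± 9.46 CPM (-0.28, SE 0.10). TRAK1, a kinesin adaptor that also carries mitochondria, averaged 55.9 ± 16.4 and 83.5 ± 16.4 CPM (0.58, SE 0.20; SD, n = 5 each).

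DBI, the precursor of peptides that bind the benzodiazepine site, averaged 141.1 ± 36.6 CPM in the follicular and 103.5 ± 25.5 CPM in the luteal libraries (SD, n = 5 each; log2 difference -0.45, SE 0.21). The 6 further genes of chloride transport and its kinases all averaged higher in luteal libraries, with log2 fold changes from 0.07 to 0.32 and edgeR adjusted p from 0.517 to 0.837. GABRA6, the subunit of cerebellar granule cells, and GABRR3 had 0 reads in every library, which allows up to 3 reads over all 10 libraries, or 0.00912 CPM on unscaled totals, for counting error only.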

How the data were processed

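RNA of 10 mixes was extracted with TriReagent and made into libraries with a stranded mRNA kit, per the labels' protocols. The tools named in the submitters' processing notes include featureCounts 2.0.0, a read counter, and the aligners Bowtie2 2.3.5.1 and TopHat2 2.1.1. Build, strand setting and how shared reads were counted are not given in the sources used here, so genes with near-identical copies or overlaps, such as the GABARAP family, are uncertain. The authors deposited raw counts per gene, not normalised.

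The members and lists were chosen with earlier results of these data known. By rule, library values were given for members with an unadjusted p under 0.05 or phases that did not overlap, and always for GAD1, GAD2, SLC32A1, GABRA4, GABRD, SLC12A2 and SLC12A5. Of the wider pathway, genes with an unadjusted p under 0.05 were named. Others named there, and the relation to the ribosomal protein share, were chosen after their values were seen.

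Counts were tested in R 4.3.3 with edgeR 4.0.16 (quasi-likelihood F-test, two-sided, phase as the only term) after filterByExpr (minimum count 10, minimum total 15) and TMM scaling, with Benjamini-Hochberg adjustment over 18276 genes and a threshold of 0.05. Levels are not compared between genes, since lengths were not used. Centred values used a prior count of 2. The alternatives tried were scaling by RLE, by upper quartile or (for the overlap of the phases) by library total, leaving out the filter, 1 CPM in 5 libraries, a replicate block, leaving out each library or follicular 1 and 3, DESeq2 1.42.0, limma-voom (limma 3.58.1) and robust dispersion. The smallest exact p for 5 against 5 libraries is 0.00794. The edgeR test was run on simulated counts drawn independently for each gene. Relations between genes were not simulated, so this run does not give the power of the test in these libraries. No pair of libraries agreed within sampling noise.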

Additional observations from a re-analysis of the deposited data

Results flagged for a closer look

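Among 56 groups of 5 libraries examined, 2 held a library far from the rest of its phase, measured as its gap to the nearest library divided by the range of the phase and set against a limit of 0.71. Chance gives about 1 in 20, or 2.8. GABBR2 was 17.9 CPM in luteal 4 and at least 25.3 CPM in the other luteal libraries (ratio 0.756). GABARAP was 407.7 CPM in follicular 5 and at least 502 CPM in the other follicular libraries (ratio 0.830). In luteal 4 the summed neuron markers were also the lowest of the 10 libraries, at 1205 CPM. Of the single neuron markers, ELAVL4 and MAP2 were lowest there, and the others were lowest in other libraries. In follicular 5 the ribosomal protein share was the lowest, at 1.36%. The part of the neuron markers or of the share in these values was not tested.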

How the results depend on the processing

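The GABA genes gave 0 calls under all 19 alternatives, and 19 of the 25 kept their direction throughout. GABRG3 was left out by the filter of 1 CPM in 5 libraries and had no adjusted p by DESeq2. Adjusted p ran from 0.0606 to 1.00. Over all genes DESeq2 called 35 and leaving out single libraries called 0 to 1. GABA genes at an unadjusted p under 0.05 numbered 2 to 7 without single libraries. The 7 were without follicular 5, where 34.2% of all genes were past that p, and 6 without luteal 4 (15.4%). Without follicular 1 and 3 there was 1, GABRE (3.23% of all genes), and the median log2 fold change was 0.0095 against 0.0965. Without single libraries that median ran from 0.05 to 0.25. Genes with phases that did not overlap numbered 1 to 2 without single libraries, the second being SLC6A11 without follicular 2 (1.97% of all genes did not overlap there) and GABRE without follicular 5 (7.83%) or luteal 1 (3.29%).

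Directions turned without follicular 1 and 3 for ABAT (-0.0368), GABRB2 (-0.123), GABBR2 (-0.0120) and GPHN (-0.0152), and by limma-voom for GABRA2 (-0.0114). Without single libraries GABRA2 ran from -0.0625 to 0.240, GABRB2 from -0.0771 to 0.310, GABRG1 from -0.0895 to 0.0470, and the phase difference in the log2 ratio of GAD1 to GAD2 from -0.0815 to 0.0501. The cause was not tested.

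The replicate block gave 0 calls and 4 GABA genes at an unadjusted p under 0.05, against 24.7% of all genes under that fit, the fourth being SLC12A5 (log2 fold change 0.47). Same-numbered libraries did not pair throughout: their deviations correlated at 0.37, 0.06, -0.34, 0.29 and 0.63. The closest luteal library had the same number for follicular 1, 4 and 5 but not for 2 and 3. The closest follicular library had the same number for luteal 4 and 5 only. Pairing was not tested.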
